A study of Sus scrofa with 16 samples.

Results

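The 6 genes described here are carried on the pig mitochondrial chromosome and encode cytochrome b (CYTB), the catalytic core of cytochrome c oxidase (COX1, COX2 and COX3) and the membrane part of ATP synthase (ATP6 and ATP8). They were chosen by name and by their place on chromosome MT, and were 6 of 25880 genes in the count table. RNA had been sequenced from the whole pituitary gland of 16 Złotnicka White gilts, a native Polish breed, and the pigs fell into a group of 8 with low feed conversion (LFC) and a group of 8 with high feed conversion (HFC), where a high value means more feed eaten per unit of weight gained. The sample records give slaughter on day 180 of life at a body weight of 100 ± 2 kg for every pig. The study, however, ended the test at a set weight and reports ages that varied between pigs. No treatment separated the groups, and the pigs came from several farms and were unrelated. The study reports that HFC pigs of this breed gained weight more slowly, stayed longer in the test and had more fat at several sites. These traits cannot be told apart from feed conversion here. Each library was made from the entire gland, so fewer cells of a type and less RNA per cell cannot be told apart. The comparison asked which pituitary transcripts differ between pigs that use feed more and less efficiently.

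Mammalian mitochondria keep a small circular genome of their own, transcribed as long precursors that are cut into messengers, mostly at the transfer RNAs that lie between them. ATP8 and ATP6 are read from the same mature RNA, so below the mRNA of a gene means the reads assigned to that gene. The proteins this genome encodes sit in the inner mitochondrial membrane and join subunits imported from the cytosol. Complex III, which contains cytochrome b, passes electrons to cytochrome c, and complex IV hands them to oxygen. ATP synthase uses the proton gradient that electron transport builds to make ATP. Endocrine cells of the anterior pituitary draw on this ATP for hormone synthesis and secretion.

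In the Sscrofa11.1 assembly, COX1 (ENSSSCG00000018075) lies at MT:6511-8055, COX2 (ENSSSCG00000018078) at MT:8203-8890, ATP8 (ENSSSCG00000018080) at MT:8959-9162, ATP6 (ENSSSCG00000018081) at MT:9120-9800, COX3 (ENSSSCG00000018082) at MT:9800-10583 and CYTB (ENSSSCG00000018094) at MT:15342-16481. ATP8 and ATP6 share 43 bases at MT:9120-9162, which is 21.1% of ATP8 and 6.31% of ATP6, and ATP6 and COX3 share 1 base. Between COX2 and ATP8 lie 68 bases, and between ND6 and CYTB lie 75 bases. A read in an overlap, or one that also matches a nuclear copy of mitochondrial DNA, cannot be placed with certainty, and the library kit did not mark strand.

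Counts per library totalled 6258650 to 8402619 in LFC and 6010629 to 11794256 in HFC, with RNA integrity numbers over 7. Of 13621 genes tested with edgeR's quasi-likelihood test and Benjamini-Hochberg adjustment, 0 (0%) had an adjusted p no larger than 0.05 together with a fold change of 1.3 or more, whereas DESeq2 called 29. At an unadjusted p up to 0.05, 958 genes (7.03%) were higher in HFC and 601 (4.41%) were lower, so that 61.4% of these genes were higher in HFC. This share was 46.0% when libraries were scaled by their totals. The log2 fold change of HFC over LFC was above 0 for 47.9% of all genes, and the pigs of the groups did not overlap for 1 gene (0.00734%). Markers of anterior pituitary cells summed to 97170.3 to 189544 counts per 1000000 counts of the TMM-scaled library (CPM) in LFC and 103332 to 215211 CPM in HFC over 9 tested names of 10.

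All 6 genes passed the filter on low counts, and together they held 2.49% ± 0.64 (SD, n = 8) of the counts in LFC and 3.00% ± 0.76 (SD, n = 8) in HFC. The share ran from 1.72% in LFC replicate 6 to 3.41% in LFC replicate 1, and from 2.08% in HFC replicate 2 to 4.44% in HFC replicate 6. Every gene had a log2 fold change above 0, with a median of 0.25 and a range of 0.12 to 1.32, against a median of -0.01 over all genes tested. CYTB and ATP8 were higher in HFC at an unadjusted p up to 0.05, and 0 of the 6 passed the adjusted threshold. The smallest adjusted p of the 6 was 0.413 with edgeR and 0.159 with DESeq2. For every one of them the range of the HFC pigs overlapped that of the LFC pigs.

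CYTB, the only subunit of complex III that the mitochondrial genome encodes was higher in HFC at the unadjusted threshold, and this did not rest on any 1 pig. Its level was 1796 CPM in the lowest LFC pig, 2371 at the median and 3295 in the highest. In HFC it was 2378 CPM in the lowest pig, 3240.3 at the median and 4189 in the highest. All 8 HFC pigs lay above the LFC median, and 3 of them above the highest LFC pig. The means were 2475 ± 532 CPM in LFC and 3360.4 ± 624 CPM in HFC (SD, n = 8 each), a log2 fold change of 0.44 ± 0.15 (SE) with an unadjusted p of 0.00831 and an adjusted p of 0.413 in edgeR. With any 1 pig left out it was 0.39 to 0.53.

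COX1 carries the heme and copper centre at which oxygen is reduced. In LFC it ran from 6057 CPM in replicate 6 through a median of 9129.55 to 12822 CPM in replicate 3. In HFC it ran from 8466 CPM in replicate 2 through a median of 11473 to 16321 CPM in replicate 5. The HFC pigs lay above the LFC median in 6 of 8 cases. The log2 fold change was 0.33 ± 0.18 (SE), with an adjusted p of 0.455 in edgeR.

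COX2, which accepts electrons from cytochrome c, had the smallest log2 fold change of the 6 with all pigs in. Levels were 3001 to 4502 CPM in LFC, with a median of 3232, and 3006 to 5076 CPM in HFC, with a median of 3524. The lowest pigs of the groups were nearly equal, and the log2 fold change was 0.12 ± 0.15 (SE), with an adjusted p of 0.713 in edgeR. It was 0.053 without HFC replicate 6, where ATP6 was lower still at 0.046, 0.076 without HFC replicate 5, 0.18 without HFC replicate 2, 0.19 without LFC replicate 3 and 0.019 without HFC replicates 4 and 5. COX3, the remaining core subunit, ran from 3716 to 6440.0 CPM in LFC with a median of 4635, and from 4498 to 8236 CPM in HFC with a median of 5358. Its log2 fold change was 0.17 ± 0.16 (SE), with an adjusted p of 0.629 in edgeR. Without HFC replicate 6, the pig with the highest value, it was 0.07.

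ATP6 forms part of the proton channel of ATP synthase. It ran from 3012 CPM through a median of 3976 to 5315 CPM in LFC, and from 3732 CPM through a median of 4344 to 7420.2 CPM in HFC. As with COX3, HFC replicate 6 was the highest pig. The log2 fold change was 0.17 ± 0.16 (SE), with an adjusted p of 0.617 in edgeR, and it was 0.05 without that pig.

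ATP8, a short membrane subunit of the same enzyme, had the largest log2 fold change of the 6, and this value rested on a pair of pigs. Levels in LFC were 41.2 CPM in the lowest pig, 62.4 at the median and 79.7 in the highest. In HFC the lowest pig had 53.6 CPM and the median was 68.55, but replicate 4 had 408 CPM and replicate 5 had 413 CPM. The other 6 HFC pigs lay between 53.6 and 100.65 CPM, with a mean of 68.1 ± 17.3 (SD, n = 6). With all pigs the log2 fold change was 1.32 ± 0.44 (SE), with an unadjusted p of 0.00749 and an adjusted p of 0.413 in edgeR. It was 0.92 without HFC replicate 4, 0.95 without HFC replicate 5 and 0.17 (unadjusted p = 0.307) without both, an analysis chosen after seeing the data. Without both pigs CYTB kept a log2 fold change of 0.38 (unadjusted p = 0.0278), also from edgeR.

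**Figure D1:**
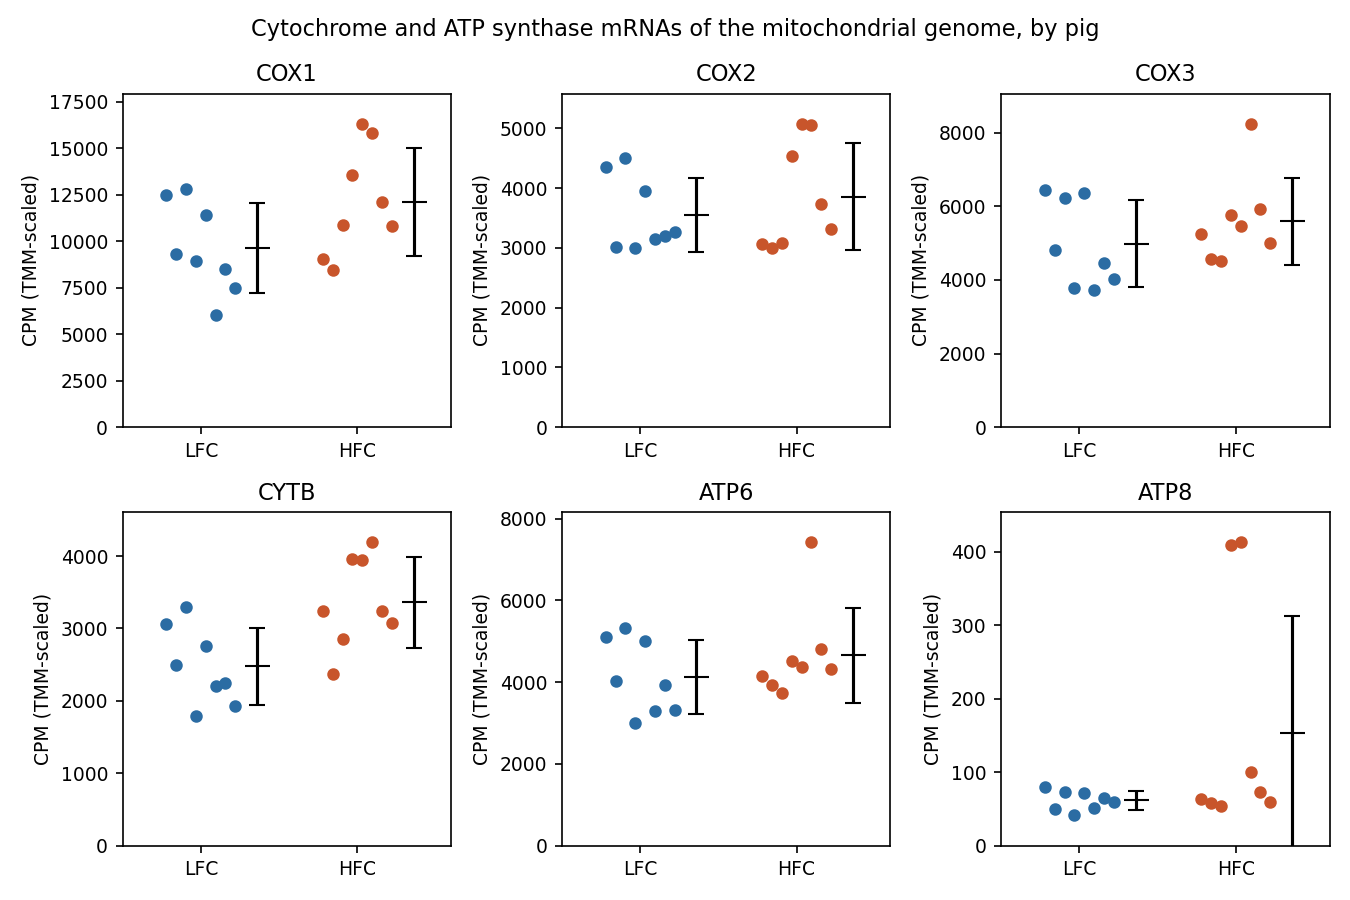
Level of each of the 6 mRNAs in CPM after TMM scaling (y axis, from 0, with a separate scale in each panel) in LFC and HFC pigs. Points are pigs, and the black mark and bar are the mean ± SD of 8 pigs (the HFC bar of ATP8 reaches below 0 and is not drawn past it). All 8 HFC pigs lie above the LFC median for CYTB, and 2 HFC pigs, at 408 and 413 CPM, stand apart for ATP8.

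Per kilobase of gene, 5 of the 6 had the highest median levels of the 13 mitochondrial protein genes, and ATP8 had the lowest. As ATP8 and ATP6 are read from the same mature RNA, their levels are reads assigned to each gene and not amounts of separate mRNAs. The 12S and 16S rRNA genes lay below all of these. The study names a TruSeq RNA library kit but does not state how it selected RNA, so rRNA and mRNA are not ranked. The median over 16 pigs was 7022 CPM per kilobase for COX1, 6540.28 for COX3, 6226 for ATP6, 4774 for COX2 and 2599 for CYTB. COX1 exceeded COX3 in 7 of 16 pigs, so these levels were not ordered beyond the spread between pigs. COX3 exceeded ATP6 in 13 pigs, ATP6 exceeded COX2 in 15, and COX2 exceeded CYTB in all 16. CYTB exceeded ND4, the next gene and a subunit of complex I, in 16 of 16 pigs. ATP8 had a median of 315 CPM per kilobase, close to the 393 of ND5, which exceeded it in 9 of 16 pigs. The study names RSEM (RNA-Seq by Expectation Maximization) among its tools, but does not describe how reads in the bases shared with ATP6 were divided. The part of that division in the level of ATP8 was not tested.

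**Figure D2:**
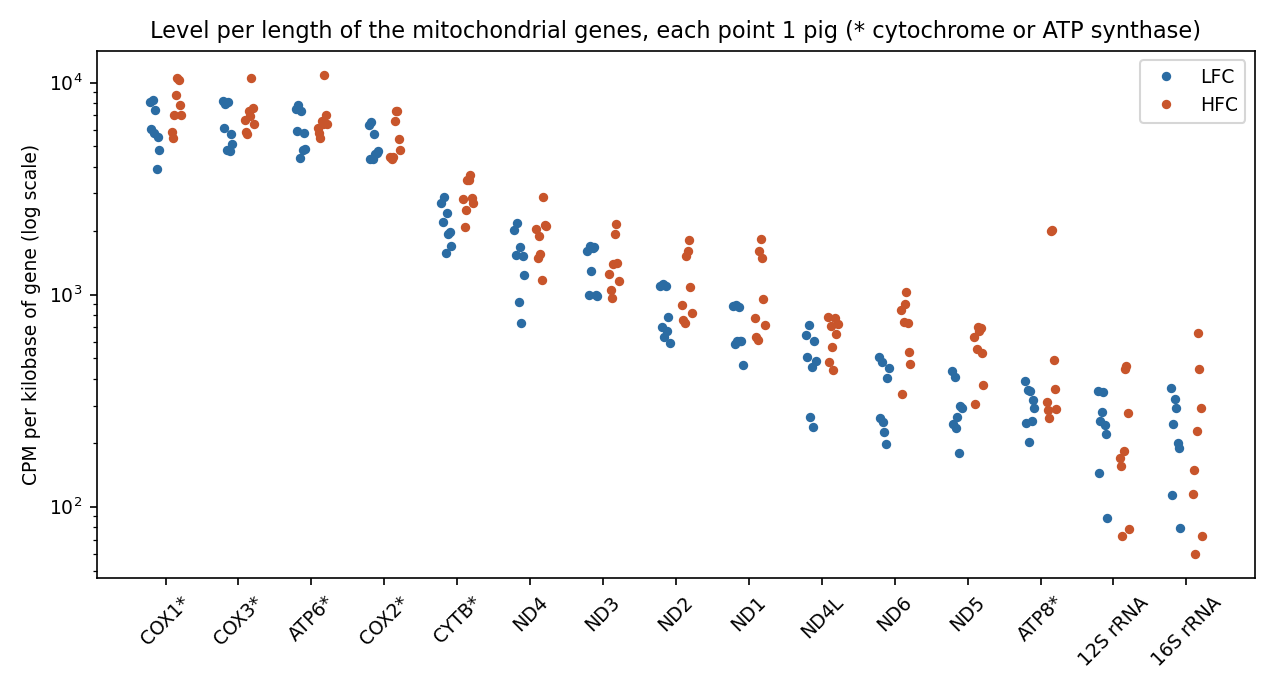
Level per length (CPM per kilobase of gene, log scale) of 15 mitochondrial genes, ordered by the median of 16 pigs, with each point 1 pig and the cytochrome and ATP synthase genes starred. COX1, COX3, ATP6, COX2 and CYTB lead with medians of 7022 to 2599 CPM per kilobase, and ATP8 at 315 lies just above the 12S and 16S rRNA genes.

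The other 7 mitochondrial mRNAs encode subunits of complex I, where electrons enter from NADH. All 7 had log2 fold changes above 0, with a median of 0.46, where 47.9% of all genes tested lay above 0. At an unadjusted p up to 0.05, 4 of 7 were higher in HFC, against 7.03% of all genes tested. None of the 7 passed the adjusted threshold, the smallest adjusted p being 0.372 in edgeR. ND5 had 538 ± 158 CPM in LFC and 1017 ± 271 CPM in HFC (SD, n = 8 each), a log2 fold change of 0.92 ± 0.20 (SE). ND6 had a log2 fold change of 1.02, and ND3, which lies between COX3 and ND4L, one of 0.05. The cytochrome oxidase and ATP6 genes had smaller log2 fold changes than ND1, ND2, ND5 and ND6, and larger ones than ND3. Those of ND4 (0.37 ± 0.21, SE) and ND4L (0.39 ± 0.20, SE) were close to that of COX1 (0.33 ± 0.18, SE). The 6 cytochrome and ATP synthase genes held 83.6% ± 1.00 (SD, n = 8) of the counts of the 13 mRNAs in LFC, with pigs from 82.5% to 85.1%. In HFC they held 81.1% ± 1.26 (SD, n = 8), with pigs from 78.6% to 82.7%, so the ranges met over 82.5% to 82.7%.

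**Figure D3:**
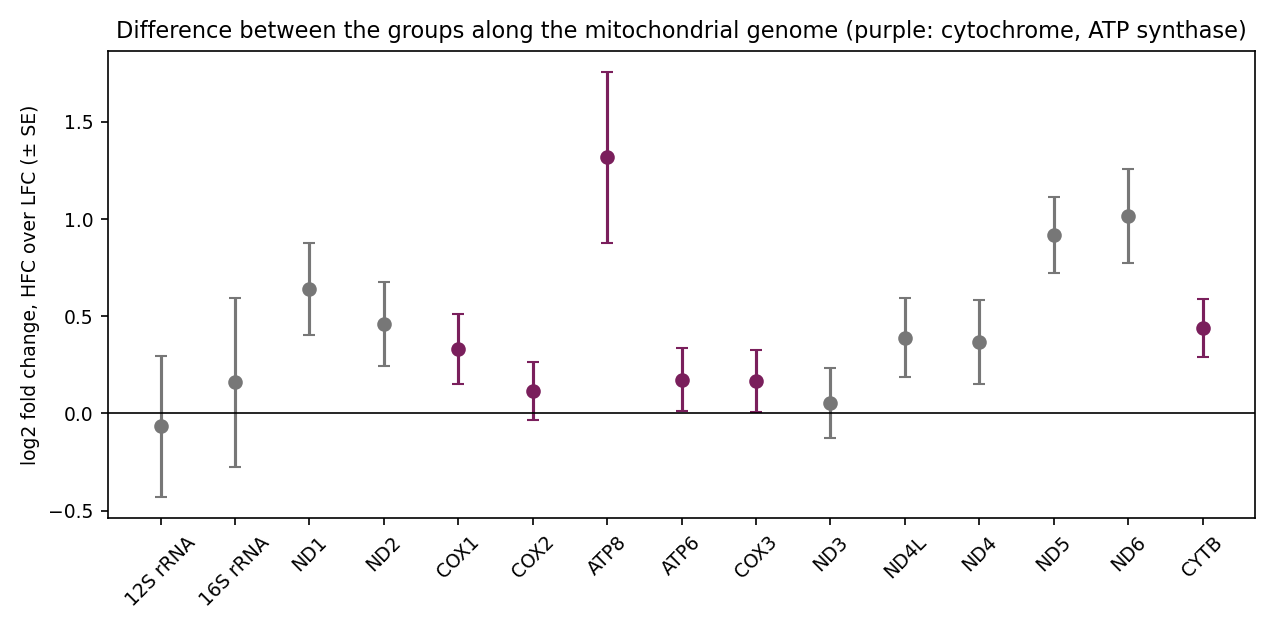
Log2 fold change of HFC over LFC (y axis, points, with bars of ± 1 SE from edgeR) for 15 mitochondrial genes in genome order (x axis), with the cytochrome and ATP synthase genes in purple. All 13 mRNAs lie above 0, from 0.05 for ND3 to 1.32 for ATP8, and the 12S rRNA gene lies at -0.07.

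To compare these mRNAs within a library, where its scaling cancels, each was divided by the sum of the other 12 mitochondrial mRNAs, and the log2 ratios were compared between groups with an exact two-sided permutation test. Across 8 against 8 pigs the smallest p this test allows is 1.55e-04. The 7 ratios tested include ATP8 over ATP6, and their p-values are unadjusted. A ratio of this kind shows unequal change among the genes and not which of them changed.

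COX2 was lower relative to the other mRNAs in HFC. Its share of the 13 mRNAs ran from 10.7% to 14.4% with a median of 11.7% in LFC, and from 9.71% to 11.8% with a median of 10.2% in HFC. In 1 of 8 HFC pigs the ratio exceeded the LFC median. The mean log2 ratio was lower by 0.23 (exact permutation p = 0.00451, n = 8 each), a larger difference than the SD of 0.17 in LFC and 0.11 in HFC. Leaving out any 1 pig gave differences of -0.26 to -0.19, and the 7 complex I mRNAs as denominator gave -0.41.

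COX3 was also lower relative to the others, by 0.15 on the log2 scale (exact permutation p = 0.0250, n = 8 each), with a share of 16.7% ± 0.74 in LFC and 15.3% ± 1.43 in HFC. The p was above 0.05 without LFC replicate 5 (-0.13, p = 0.0545, exact permutation test) and without HFC replicates 4 and 5 together (-0.081, p = 0.103, exact permutation test), and the difference was -0.33 with the complex I mRNAs as denominator (exact permutation p = 4.66e-04). CYTB was higher relative to the others by 0.15 (exact permutation p = 0.0345, n = 8 each), with all 8 HFC pigs above the LFC median. Its share was 8.38% ± 0.82 in LFC and 9.21% ± 0.63 in HFC, and its difference had a p up to 0.05 in 8 of the 16 fits that left out 1 pig. It did not pass without LFC replicates 1, 4, 5, 7 or 8 or HFC replicates 1, 4 or 8, each left out alone, with differences of 0.13 to 0.15. With the 7 complex I mRNAs as the denominator, the CYTB difference turned to -0.062.

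For COX1 the ratio differed by 0.04 (exact permutation p = 0.615, n = 8 each). ATP6 was lower by 0.15 (exact permutation p = 0.0797, n = 8 each), a difference that passed 0.05 without LFC replicate 4, HFC replicate 2 or HFC replicate 6, each left out alone (-0.18 to -0.19), and with the complex I mRNAs as denominator (-0.34, exact permutation p = 9.32e-04). ATP8 had a difference of 0.50 (exact permutation p = 0.388, n = 8 each).

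**Figure D4:**
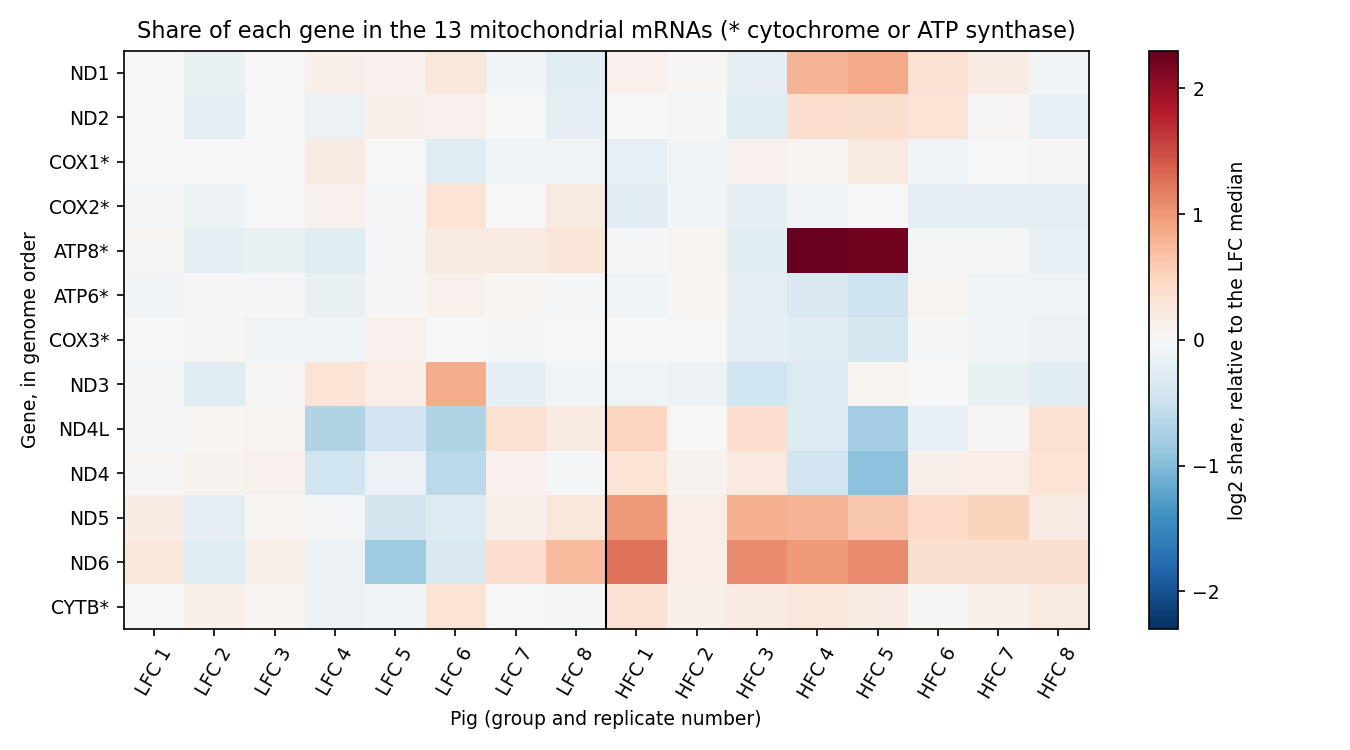
Share of each gene (rows, in genome order, cytochrome and ATP synthase genes starred) in the 13 mitochondrial mRNAs of each pig (columns, LFC left and HFC right of the line), as log2 relative to the LFC median, with red higher and blue lower. ATP8 is reddest in HFC replicates 4 and 5, and the COX2 row is paler or bluer in HFC than in LFC, with medians of 10.2% and 11.7% of the 13 mRNAs.

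ATP8 and ATP6 overlap by 43 bases and are read from the same mature RNA, and in most pigs their counts kept a narrow ratio. This is a ratio of reads assigned to each gene and not of separate RNAs. Per 100 reads of ATP6 there were 1.26 to 1.80 reads of ATP8 in LFC, with a median of 1.49. In HFC the lowest pig had 1.36 and the median was 1.51. HFC replicate 4 had 9.06, from 4121 reads of ATP8 and 45499 of ATP6, and HFC replicate 5 had 9.46, from 2196 and 23204, while the next HFC pig had 1.53. The log2 ratio differed between groups by 0.63 (exact permutation p = 0.326, n = 8 each), and by -0.041 without these pigs.

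Besides ATP8, only ND1 and ND6 lay above all other HFC pigs in both of these pigs, and ATP6, COX3 and CYTB did not. ATP6 was 4509.61 CPM in HFC replicate 4 and 4359.96 CPM in HFC replicate 5, within the 3732 to 7420.2 CPM of the other HFC pigs. ND1 was 1529 CPM and 1739 CPM, above the highest of the other HFC pigs at 1422 CPM, and ND6 was 477 and 546 CPM against at most 448 CPM. COX1 in HFC replicate 5 was the highest of the group, whereas ND4 and ND4L in that pig were the lowest, at 1616 and 131 CPM. Total counts were 9428734 and 6010629, and summed blood markers were 201 and 1045 CPM against 63.1 to 357 CPM in the other HFC pigs. The part of depth or of other cell types in these values was not tested.

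**Figure D5:**
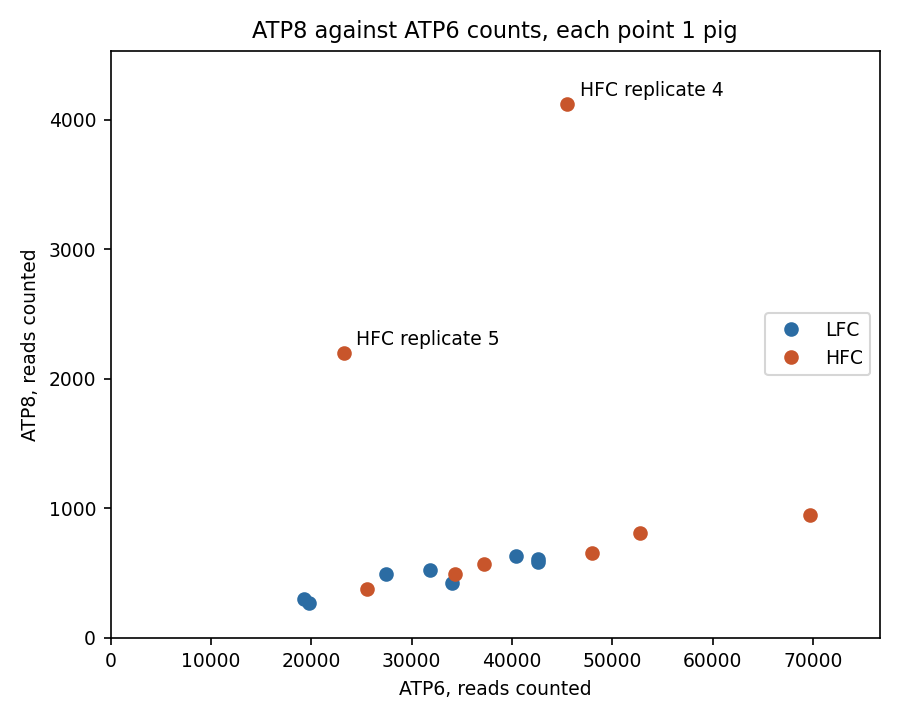
Reads counted for ATP8 (y axis) against ATP6 (x axis), with each point 1 pig in LFC or HFC. Of the 16 pigs, 14 lie near 1 line with 1.26 to 1.80 ATP8 reads per 100 ATP6 reads, and HFC replicates 4 and 5 lie far above it at 9.06 and 9.46.

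Across pigs the levels of COX1, COX2, COX3, CYTB and ATP6 were correlated, whereas those of ATP8 with the others depended on HFC replicates 4 and 5. Over the 10 pairs that leave out ATP8, Pearson's r of log2(CPM + 1) was 0.76 to 0.98 and Spearman's rho 0.73 to 0.98 over 16 pigs. Among these 10 the largest p, adjusted over the 15 pairs tested, was 6.68e-04 for r and 0.00185 for rho (permutation tests with 100000 resamples). Within LFC r was 0.77 to 0.98 and within HFC 0.63 to 0.98, and without the 2 pigs farthest from the median it was 0.66 to 0.97. COX3 and ATP6, which adjoin on the chromosome, had the highest r at 0.98. For the 5 pairs with ATP8, r over 16 pigs was 0.34 to 0.75 with an adjusted p up to 0.192, and rho was 0.77 to 0.91 (permutation tests). The lowest r were those of ATP8 with ATP6, at 0.34, and with COX3, at 0.41. Within LFC r was 0.62 to 0.86 for these pairs and within HFC 0.14 to 0.80. As HFC replicates 4 and 5 form a separate cluster in ATP8, no relation is drawn from all 16 pigs, and over the 14 others, a choice made after seeing the data, r was 0.71 to 0.92 and rho 0.70 to 0.87, with adjusted p up to 0.00469 for r and 0.00735 for rho (permutation tests). All points share the library's scaling, and the mRNAs share a genome and its precursors.

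Outside the mitochondrial chromosome, the genes most like each mRNA across 16 pigs were found by Pearson's r among 12661 genes, as a description with no test. COX3 and ATP6 had the same leading gene, PRRT2, a presynaptic membrane protein, with r of 0.92 for each. SYT11, a synaptotagmin, followed at 0.87 for COX3 and 0.90 for ATP6. CYTB was most like PASK, a nutrient-responsive kinase (r = 0.88), and COX1 was most like FDPS, which makes farnesyl diphosphate in the sterol pathway (r = 0.81). COX2 was most like LRRTM2, a synaptic adhesion protein (r = 0.81), and ATP8 most like GYG2, which primes glycogen synthesis (r = 0.78). Without HFC replicates 4 and 5 the r of ATP8 with GYG2 was 0.38, so it rested on these pigs, while the leading genes of the other 5 mRNAs had r of 0.73 to 0.93. None of these genes passed the adjusted threshold between LFC and HFC, with adjusted p of 0.413 to 0.912 in edgeR.

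The partners of these subunits are encoded in the nucleus, and the log2 fold changes of their mRNAs lay below 0. Of the nuclear subunits of complex III, 0 of 7 tested had a log2 fold change above 0, and the median was -0.19. UQCRC1, a core protein, was at -0.19 (unadjusted p = 0.0392, edgeR) and UQCRQ, a small subunit, at -0.28 (unadjusted p = 0.0404, edgeR). Of the nuclear subunits of complex IV, 0 of 12 were above 0, with a median of -0.26. COX7A1, the form typical of heart and skeletal muscle, was at -0.53 (unadjusted p = 0.0145, edgeR), and COX4I1, a regulatory subunit, was at -0.28 (unadjusted p = 0.0473, edgeR). Of the nuclear ATP synthase subunits, 0 of 15 were above 0, with a median of -0.22, and 0 had an unadjusted p up to 0.05. ATP5O, which links the catalytic head to the stalk, was at -0.30, ATP5J2 at -0.26, ATP5F1 at -0.29 and ATP5D, a rotor subunit, at -0.14 (unadjusted p of 0.0972 to 0.109, edgeR). Over all genes 47.9% lay above 0, and these 3 counts stayed at 0 under each of 4 other scalings of the libraries.

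Of the genes that build complexes III, IV and V, 4 of 23 lay above 0, with a median of -0.14 and none at an unadjusted p up to 0.05. The smallest p in this list were those of UQCC3, at -0.26, and the copper chaperone COX17, at -0.28. Genes that copy, pack and transcribe mitochondrial DNA had 5 of 21 above 0, with a median of -0.14. In this list ESRRA, a nuclear receptor of mitochondrial genes, was at -0.33 and RNASEH1, which removes RNA from RNA-DNA hybrids, at -0.16, each at an unadjusted p up to 0.05. Genes that cut and degrade mitochondrial RNA had 4 of 20 above 0, with a median of -0.11. HSD17B10, a subunit of mitochondrial RNase P, was at -0.33, and ELAC2, which cuts the other end of transfer RNAs, at 0.19 (unadjusted p of 0.106 and 0.120, edgeR). Cytochrome c and markers of mitochondrial mass had 2 of 10 above 0, with a median of -0.17. CYCS, cytochrome c itself, was at -0.36 and SLC25A4, the ATP and ADP carrier, at -0.26, each at an unadjusted p up to 0.05. None of the genes in these 7 lists passed the adjusted threshold, the smallest adjusted p being 0.413 in edgeR.

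Markers of other cells also differed between pigs. Blood markers, 2 of 3 names tested, summed to 277 to 1427 CPM in LFC and 63.1 to 1045 CPM in HFC, and ALAS2, the heme synthesis enzyme of red cells, was at -0.97 (unadjusted p = 0.0289, edgeR). Endothelial markers, 3 of 3 tested, summed to 67.9 to 105 CPM in LFC and 60.6 to 165 CPM in HFC. VWF was at 0.78, CDH5 at 0.43 and PECAM1 at 0.06 (adjusted p of 0.413 to 0.879 in edgeR). Markers of posterior lobe glia and myelin, 3 of 5 tested, summed to 120.04 to 5789 CPM in LFC and 108 to 3141 CPM in HFC. Folliculostellate and stem cell markers, 2 of 3 tested, summed to 129 to 390 CPM in LFC and 88.5 to 389 CPM in HFC, immune markers, 4 of 4 tested, to 60.8 to 115 and 38.5 to 104 CPM, and muscle markers, 2 of 3 tested, to 5.20 to 10.1 and 3.94 to 8.82 CPM. Among anterior pituitary hormones, PRL was at a log2 fold change of 1.27, POMC at -1.23, CGA at -0.56 and GH1 at 0.04. None passed the adjusted threshold, with adjusted p of 0.372, 0.383, 0.433 and 0.941 in edgeR. No tested marker list summed to 0 in any pig. Their part in the values of the mitochondrial mRNAs was not tested.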

How the data were processed

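Whole pituitaries of 16 gilts were sequenced by the authors as single-end, unstranded libraries, each in 4 technical runs. The deposited values are raw read counts per gene, made by the authors on Sscrofa11.1. Per the submitters' processing notes, CASAVA 1.8.2, FastQC, RSEM, STAR and DESeq2 were used. The label that names the groups stands under a heading for shear force, and its values name low and high feed conversion ratio. The deposited columns of the authors' own comparison were not used, and 0 columns of per-sample values were left out. No label gives a batch.

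The counts were tested with edgeR 4.0.16 in R 4.3.3 (TMM, filterByExpr, quasi-likelihood, Benjamini-Hochberg), which kept 13621 genes. Calls needed an adjusted p no larger than 0.05 with a fold change of 1.3 or more. Where levels are given, counts were divided by TMM-scaled library sizes (CPM). DESeq2 1.42.0, limma 3.58.1 and sva 3.50.0 gave alternatives, and the fit was tested on simulated data with 1 dispersion for all genes. There it called 91 of 100 genes changed 2-fold, 20 of 100 changed 1.5-fold, and 7 unchanged genes. A gene that was not called is therefore not shown to be equal between the groups. Nuclear genes without a deposited symbol were named by identifier or position from RefSeq, and TRMT10C was counted under 2 identifiers. Permutation tests were computed with numpy 2.4.6, and the exact regrouping test was checked against scipy 1.17.1 on random numbers. The members and lists were chosen with earlier results of these data known, so no p over the list is given. Named genes were the 6 members, the 3 most alike genes of each, and up to 4 genes of each list with the smallest p. GH1 was added as the remaining hormone of the anterior pituitary list. P-values measure the spread between pigs, and counting intervals cover counting error only.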

Additional observations from a re-analysis of the deposited data

Results flagged for a closer look

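In HFC replicate 6, COX3 stood at 8236.04 CPM and ATP6 at 7420.19 CPM, each far above the other 7 HFC pigs relative to the range of the group. These were 2 of 26 groups of 8 pigs examined with Dixon's criterion (critical value 0.526), and chance flags about 1 in 20 groups. Both values come from the same library and from adjoining genes.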

How the results depend on the processing

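The number of genes called was 0 under every edgeR and limma setting and with any 1 pig left out, and 29 with DESeq2. Under limma voom with sample quality weights all 6 log2 fold changes were smaller, at 0.16 for COX1, -0.021 for COX2, 0.055 for COX3, 0.31 for CYTB (adjusted p = 0.268 in limma), 0.058 for ATP6 and 0.52 for ATP8. Without HFC replicates 4 and 5, chosen after seeing the data, the ratio to the other mitochondrial mRNAs differed by -0.014 for COX1, -0.081 for COX3, 0.14 for CYTB and -0.091 for ATP8, and ATP8 over ATP6 by -0.041. With the 7 complex I mRNAs as denominator the differences were -0.17 for COX1, -0.41 for COX2, -0.33 for COX3 (exact permutation p = 4.66e-04 for COX2 and for COX3), -0.062 for CYTB, -0.34 for ATP6 and 0.29 for ATP8. Dividing by length gave -0.13 for COX3 (exact permutation p = 0.0640). COX2 in place of ATP6 gave 0.70 for ATP8 (exact permutation p = 0.0118). That ratio includes HFC replicates 4 and 5 and was not tested without them. With any 1 pig left out, the ratio differences were -0.18 to -0.11 for COX3, 0.13 to 0.20 for CYTB and -0.19 to -0.10 for ATP6, and log2 fold changes were 0.39 to 0.53 for CYTB and 0.92 to 1.46 for ATP8. The replicate numbers do not pair the pigs, since same-numbered pigs had correlations of -0.34 to 0.37 and 0 of 8 LFC pigs correlated best with their own number. With the replicate block the ratios were tested by exact sign flips of the differences between same-numbered pigs. The ratio difference was 0.15 for CYTB (exact sign-flip permutation p = 0.109) and -0.15 for ATP6 (exact sign-flip permutation p = 0.0156). With this block 0 genes were called, and the ATP8 log2 fold change was 0.74. ATP8 had 271 to 945 reads in all pigs but HFC replicates 4 and 5, and 8 pigs a group limit the precision of every fold change. The causes of these shifts were not tested.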

Other observations

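The mitochondrial chromosome also carries 2 rRNA genes. As the study does not state how its TruSeq RNA kit selected RNA, their counts do not rank them against the mRNAs in the gland. The 12S rRNA gene had 231 ± 87.8 CPM in LFC and 221 ± 145 CPM in HFC (SD, n = 8 each), and the 16S rRNA gene had 354 ± 155 CPM and 396 ± 327 CPM. Their log2 fold changes were -0.07 ± 0.36 and 0.16 ± 0.44 (SE), with adjusted p of 0.941 and 0.876 in edgeR. Together they held 0.0208% to 0.0980% of the counts in LFC and 0.0158% to 0.130% in HFC, with the highest HFC share in replicate 5.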
